A study of Mus musculus with 8 samples.

Results

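The mevalonate pathway enzymes that lead up to squalene were described in mouse liver through 9 genes: Acat2, Hmgcs1, Mvk, Pmvk, Mvd, Idi1, Fdps, Fdft1 and Ggps1. The genes were chosen by the biochemical step of their products, and every non-control probe carrying one of these names on the array was taken. This gave 18 probes of 41174, and all 18 were among the 31056 detected probes. With 1 probe per gene, the 9 genes were read beside 16558 genes with a detected probe. The livers came from male wild-type C57BL/6 mice (C57BL/6J in the methods), which the labels place at 14 to 17 weeks of age at the start of the experiment. The STD group (4 mice) ate standard chow for 4 weeks. The ATH group (4 mice) ate the atherogenic diet for 4 weeks, a feed rich in fat and cholesterol with added cholic acid that is used as a model of fatty liver with inflammation. Total RNA of whole liver was labelled with Cy3 and hybridised to Agilent whole-genome arrays, with 1 liver per array.

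The pathway condenses acetyl-CoA into HMG-CoA and mevalonate, and then phosphorylates and decarboxylates mevalonate into isoprenoid units. These units are joined to farnesyl diphosphate, the branch point from which squalene and cholesterol, or the lipids that anchor prenylated proteins, ubiquinone and dolichol, are made. In liver the enzymes are classical targets of the transcription factor SREBP-2, which is held in the endoplasmic reticulum by SCAP and the INSIG proteins while sterols are abundant.

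The arrays measure each transcript by a 60-base probe. The probes of Mvk, Fdps and Fdft1 on which the values below rest are shown because each spans more of the genome than its own length in the array design's assembly (mm7), so that it bridges an exon junction and reads spliced transcript. Mvk probe A_52_P569067 lies at chr5:113677760-113680707 on the plus strand, Fdps probe A_51_P379798 at chr3:89208691-89208831 on the minus strand and Fdft1 probe A_51_P485946 at chr14:58010811-58015051 on the minus strand. The sequences are those of the array files, written in lower case throughout.
Mvk: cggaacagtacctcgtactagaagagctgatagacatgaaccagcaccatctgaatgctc
Fdps: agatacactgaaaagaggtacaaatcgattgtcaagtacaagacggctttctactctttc
Fdft1: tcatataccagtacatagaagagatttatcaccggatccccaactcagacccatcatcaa

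Promoter sequence was found for 7 of the 9 genes in a RefSeq table (GRCm38.p6). The 250 bases before the transcript start of that table are shown for Hmgcs1 (chr13:119690101-119690350, plus strand), Mvk (chr5:114444019-114444268, plus strand), Idi1 (chr13:8885356-8885605, plus strand) and Ggps1 (chr13:14063489-14063738, minus strand). The outer bounds of the gene in RefSeq take in the last 5 bases of the Mvk window and the last 78 of the Ggps1 window. Hmgcs1 is shown for its SRE-like letters, Mvk for the most CCAAT boxes among the genes, Idi1 for the largest decrease of the genes and Ggps1 as the gene with no decrease. Capitals mark the letters TCACNCCA, a sterol regulatory element-like match, and CCAAT, the box bound by NF-Y, in either orientation.
Hmgcs1: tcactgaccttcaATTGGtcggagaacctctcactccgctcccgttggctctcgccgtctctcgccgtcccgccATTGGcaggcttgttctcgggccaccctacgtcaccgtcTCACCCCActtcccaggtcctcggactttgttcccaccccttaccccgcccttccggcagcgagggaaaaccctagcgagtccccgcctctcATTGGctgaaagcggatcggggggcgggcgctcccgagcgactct
Mvk: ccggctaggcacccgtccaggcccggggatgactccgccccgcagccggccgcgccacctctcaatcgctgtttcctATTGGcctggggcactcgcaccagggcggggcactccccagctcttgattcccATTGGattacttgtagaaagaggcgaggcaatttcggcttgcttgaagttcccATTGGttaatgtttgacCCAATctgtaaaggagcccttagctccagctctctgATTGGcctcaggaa
Idi1: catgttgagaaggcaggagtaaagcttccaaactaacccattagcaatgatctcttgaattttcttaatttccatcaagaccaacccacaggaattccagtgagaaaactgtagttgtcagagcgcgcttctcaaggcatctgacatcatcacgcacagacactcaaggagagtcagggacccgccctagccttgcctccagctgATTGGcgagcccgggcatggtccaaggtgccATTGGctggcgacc
Ggps1: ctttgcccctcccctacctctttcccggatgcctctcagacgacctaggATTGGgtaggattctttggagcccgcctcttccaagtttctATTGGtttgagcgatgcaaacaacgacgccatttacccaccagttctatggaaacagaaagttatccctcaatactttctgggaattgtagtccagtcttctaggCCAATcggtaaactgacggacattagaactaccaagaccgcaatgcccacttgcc

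The SRE-like letters were present in the Hmgcs1 window, 137 bases before the start, and in no other window of these genes, against 3.67% of 32851 promoters of the same length. CCAAT was present 5 times for Mvk, 3 times each for Hmgcs1 and Ggps1, 2 times each for Mvd and Idi1 and 1 time for Pmvk in the first of its 2 listed promoters. All 250 bases of the second Pmvk window lie inside the outer bounds of the gene. CCAAT was absent from the Acat2 window and present in 33.9% of all promoters. Ggps1, whose level did not pass the test in either direction, held as many CCAAT boxes as Hmgcs1. The E-box CACGTG (6.02% of promoters) was in none of these windows. The GC box GGGCGG (32.7% of promoters) was found in those of Hmgcs1, Mvk, Mvd, Idi1 and Acat2. Both strands were searched, none of the 4 motifs contains another, and a match is a description of letters and not of a bound factor.

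Levels are given as log2 scaled signal, the log2 of the processed spot signal minus the 75th percentile of the array, so that 0 is the 75th percentile of all probes. Levels of different probes are not comparable with each other. All 18 probes were well above background on all 8 arrays. The share of spots well above background was 72.3% to 77.3% on the STD arrays and 72.9% to 77.8% on the ATH arrays, and precision is limited by the number of arrays. Each diet had a slide to itself, so that slide and diet cannot be told apart. Before scaling, the 75th percentile was higher on the ATH arrays by 0.45 on the log2 scale and the spike-in median by 0.16, while the scaled values had a median log2 fold change of -0.15 among detected probes. Without scaling 5.08% of the probes called at 5% were lower on the ATH diet, and with spike-in scaling 17.4%, against 61.8% with the scaling used here.

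Of the 9 genes, 8 were lower on the atherogenic diet and 8 passed a false discovery rate of 5% as lower by limma, Ggps1 being the exception. Over all detected probes 4.94% passed as lower. At 1%, the threshold of the study's methods, Hmgcs1 and Idi1 passed, against 0.335% of all probes. In each of the 8 lower genes the highest ATH liver lay below the lowest STD liver, which held for 13.8% of all detected probes. The median log2 fold change of the 9 genes was -2.49. In a second fit the replicate number, which marks the position on the slide, was a block, and its adjusted p is given below as blocked. In this fit with the replicate block 6 of the 9 passed 5% (2.71% of all probes) and none passed 1%, while 8 genes had an unadjusted p under 0.05 as lower, as had 21.8% of all probes in this fit. Without any scaling 7 of the 9 passed 5%, against 1.20% of all probes.

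**Figure D1:**
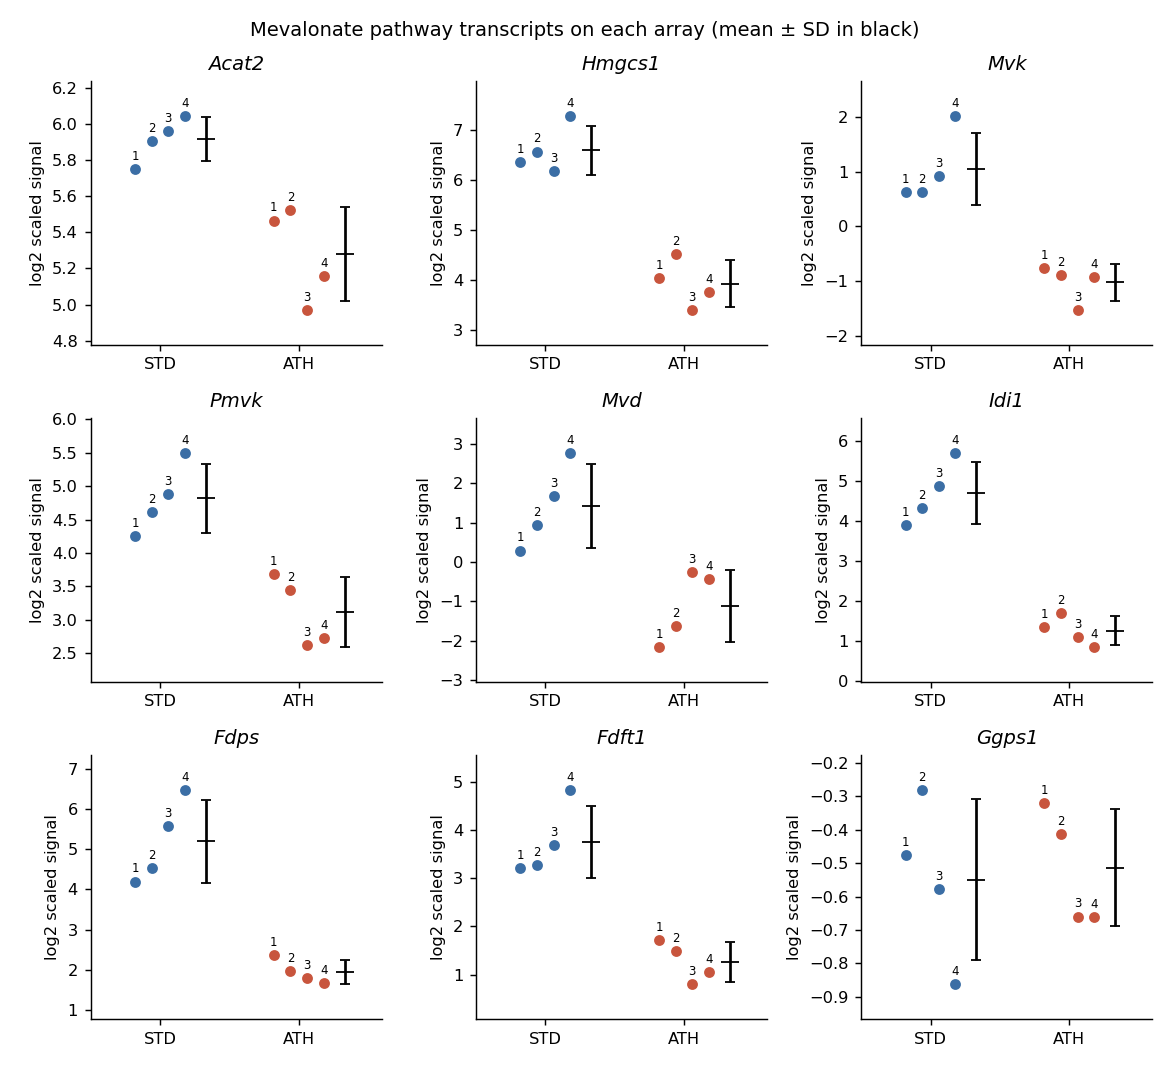
Log2 scaled signal (vertical axis, a different range in each panel) of the brightest probe of each of the 9 genes on the 4 STD arrays (blue) and the 4 ATH arrays (red), with the replicate number beside each point and the mean ± SD in black. The 4 ATH livers lie below the 4 STD livers in every panel but that of Ggps1, where the groups overlap.

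The pathway starts with the thiolase and the synthase that build HMG-CoA from acetyl-CoA. Acat2, the cytosolic acetoacetyl-CoA thiolase (not the sterol acyltransferase that was once given the same name), is on chromosome 17 and had 1 probe. The array design places this probe on the plus strand, while RefSeq has the gene on the minus strand. Whether the probe reads the Acat2 transcript was not tested. The log2 scaled signal of Acat2 was 5.75, 5.91, 5.96 and 6.04 in STD mice 1 to 4 and 5.46, 5.53, 4.97 and 5.16 in ATH mice 1 to 4. The groups did not overlap, but the closest livers, STD mouse 1 and ATH mouse 2, lay near each other. The mean of the STD livers was 5.92 ± 0.12 (SD, n = 4) and that of the ATH livers 5.28 ± 0.26 (SD, n = 4). Acat2 fell by 0.64 on the log2 scale (SE 0.155, limma adjusted p = 0.0434), to 64.3% of the STD level. This was the smallest decrease among the 8 lower genes, and it did not pass 5% with the replicate block (limma adjusted p = 0.0748). Without scaling the value was -0.19 (limma adjusted p = 0.254), and Acat2 did not pass with median, quantile or spike-in scaling either (limma adjusted p = 0.0706, 0.0966 and 0.106).

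Hmgcs1, the cytosolic HMG-CoA synthase, is on chromosome 13 and had 3 probes. At the brightest, A_51_P146941, the log2 scaled signal was 6.36, 6.58, 6.18 and 7.29 in STD mice 1 to 4 and 4.04, 4.52, 3.41 and 3.77 in ATH mice 1 to 4. STD mouse 4 was the highest liver and ATH mouse 3 the lowest, and the groups were separated by 1.65. The mean was 6.60 ± 0.49 (SD, n = 4) in the STD livers and 3.93 ± 0.47 (SD, n = 4) in the ATH livers. Hmgcs1 was 6.36-fold lower (95% confidence interval 4.00 to 10.1), a log2 fold change of -2.67 (SE 0.295, limma adjusted p = 0.00472, blocked 0.0229). The other probes gave -2.84 (limma adjusted p = 0.00423) and -2.69 (limma adjusted p = 0.0185). In the array design all 3 Hmgcs1 probes were placed on an unassigned contig. In RNA from whole liver, fewer cells of a type and less RNA per cell cannot be told apart.

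The middle steps turn mevalonate into isopentenyl diphosphate. Mvk, mevalonate kinase, is on chromosome 5. Probe A_52_P569067, which bridges an exon junction, read 0.63, 0.63, 0.93 and 2.02 in STD mice 1 to 4 and -0.76, -0.90, -1.53 and -0.93 in ATH mice 1 to 4, in log2 scaled signal. STD mouse 4 stood above the other STD livers, and no ATH liver reached the STD range. The means were 1.05 ± 0.66 (SD, n = 4) and -1.03 ± 0.34 (SD, n = 4), so that Mvk was 4.23-fold lower (95% confidence interval 2.55 to 7.01). Its log2 fold change was -2.08 (SE 0.322, limma adjusted p = 0.0137, blocked 0.0387), and the second probe gave -1.96.

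Pmvk, phosphomevalonate kinase, is on chromosome 3. Its log2 scaled signal was 4.26, 4.62, 4.89 and 5.49 in STD mice 1 to 4 and 3.69, 3.45, 2.62 and 2.73 in ATH mice 1 to 4. The groups did not overlap, with ATH mice 3 and 4 well below ATH mice 1 and 2. From 4.81 ± 0.52 (SD, n = 4) on the STD diet to 3.12 ± 0.53 (SD, n = 4) on the ATH diet, Pmvk fell by 1.69 on the log2 scale (SE 0.320, limma adjusted p = 0.0228), to 30.9% of the STD level. The call was lost with the replicate block (limma adjusted p = 0.0617). The second probe, which the design places directly beside the first, gave -1.75.

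Mvd, mevalonate diphosphate decarboxylase, is on chromosome 8 and had 1 probe. The log2 scaled signal was 0.30, 0.94, 1.69 and 2.77 in STD mice 1 to 4 and -2.16, -1.61, -0.26 and -0.44 in ATH mice 1 to 4. This gene had the widest spread of the 9 in both groups, with means of 1.42 ± 1.06 (SD, n = 4) and -1.12 ± 0.91 (SD, n = 4). The gap between the groups was narrow, from ATH mouse 3 to STD mouse 1. Mvd was 5.82-fold lower (95% confidence interval 2.33 to 14.6), with a log2 fold change of -2.54 (SE 0.584, limma adjusted p = 0.0380). With the replicate block the adjusted p was 0.0188 by limma, and with spike-in scaling it was 0.0629.

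The last steps isomerise the isoprenoid unit and join the units to longer chains. Idi1, isopentenyl-diphosphate delta-isomerase, is on chromosome 13 in RefSeq. At probe A_51_P329711 the log2 scaled signal was 3.90, 4.33, 4.89 and 5.70 in STD mice 1 to 4 and 1.36, 1.70, 1.09 and 0.85 in ATH mice 1 to 4. All ATH livers were far below all STD livers, by 2.2 or more. The mean went from 4.71 ± 0.78 (SD, n = 4) to 1.25 ± 0.36 (SD, n = 4). Idi1 had the largest decrease of the 9 genes, 10.98-fold (95% confidence interval 6.18 to 19.5), with a log2 fold change of -3.46 (SE 0.365, limma adjusted p = 0.00423, blocked 0.0324). Its dimmer probe gave -3.47 (limma adjusted p = 0.00977). The array design places both Idi1 probes on chromosome 2, which is not where RefSeq has the gene, and what else they could bind was not tested.

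Fdps, farnesyl diphosphate synthase, is on chromosome 3. The bridging probe A_51_P379798 read 4.20, 4.53, 5.58 and 6.47 in STD mice 1 to 4 and 2.36, 1.97, 1.79 and 1.66 in ATH mice 1 to 4, in log2 scaled signal. The STD livers were spread over more than 2 log2 units while the ATH livers lay close together, and the groups did not overlap. From 5.20 ± 1.04 (SD, n = 4) to 1.94 ± 0.30 (SD, n = 4), Fdps was 9.53-fold lower (95% confidence interval 4.68 to 19.4), a log2 fold change of -3.25 (SE 0.453, limma adjusted p = 0.0102, blocked 0.0415). The second probe, designed from another cDNA, gave -2.41 and did not pass (limma adjusted p = 0.0578).

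Fdft1, squalene synthase, the first enzyme committed to sterols, is on chromosome 14. At the bridging probe A_51_P485946 the log2 scaled signal was 3.20, 3.28, 3.69 and 4.83 in STD mice 1 to 4 and 1.71, 1.49, 0.80 and 1.04 in ATH mice 1 to 4. The highest liver was again STD mouse 4, and the groups did not overlap. The means were 3.75 ± 0.75 (SD, n = 4) and 1.26 ± 0.41 (SD, n = 4). Fdft1 was 5.61-fold lower (95% confidence interval 3.16 to 9.95), with a log2 fold change of -2.49 (SE 0.365, limma adjusted p = 0.0118, blocked 0.0434). The second probe, A_52_P136138, was among the dimmest of the 18, overlapped between the groups and gave -0.84 (limma adjusted p = 0.156).

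Ggps1, geranylgeranyl diphosphate synthase, which takes farnesyl diphosphate towards protein prenylation and away from squalene, is on chromosome 13. Its log2 scaled signal was -0.47, -0.28, -0.58 and -0.86 in STD mice 1 to 4 and -0.32, -0.41, -0.66 and -0.66 in ATH mice 1 to 4. The groups overlapped, and STD mouse 4, which was the highest STD liver for the other 8 genes, was the lowest for Ggps1. The means were -0.55 ± 0.24 (SD, n = 4) and -0.51 ± 0.17 (SD, n = 4). The log2 fold change was 0.04 (95% confidence interval -0.32 to 0.39, limma adjusted p = 0.901), and the other probes gave 0.13 and 0.03. The interval leaves room for a change of up to 1.25-fold in the lower direction. Without scaling the value was 0.48 (limma adjusted p = 0.0560).

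**Figure D2:**
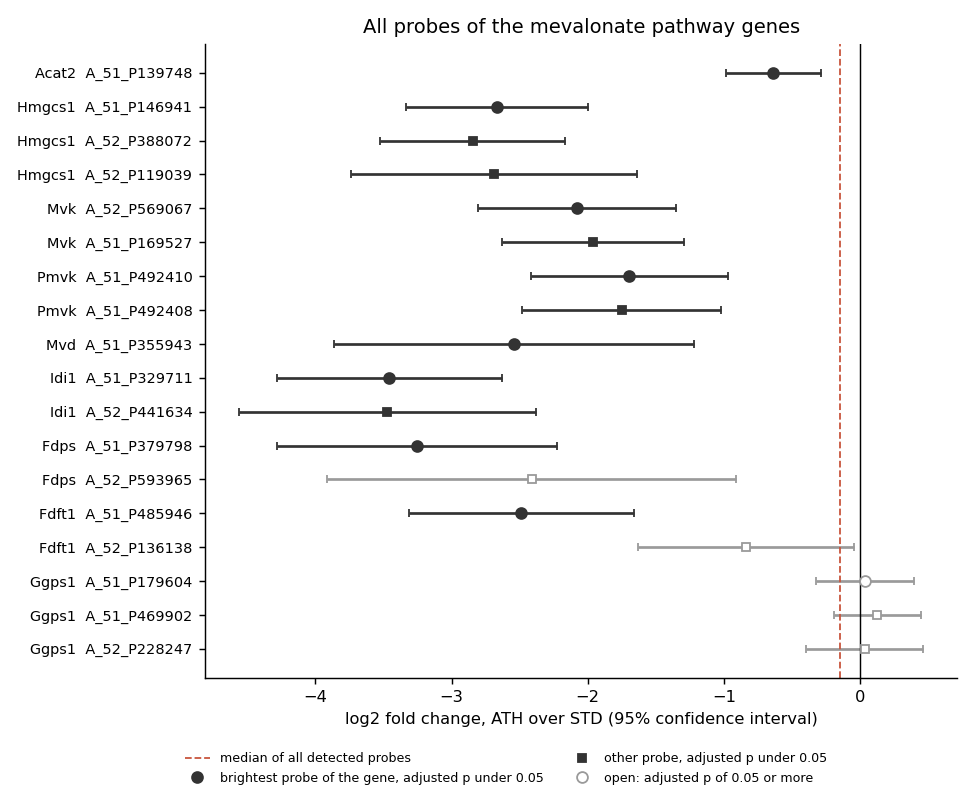
Log2 fold change of ATH over STD (horizontal axis, with the 95% confidence interval) at each of the 18 probes, circles for the brightest probe of a gene and squares for the others, filled where the adjusted p by limma was under 0.05. The probes run from -3.47 for Idi1 to 0.13 for Ggps1, and the dashed line marks the median of all detected probes, -0.15.

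Over the 18 probes, 15 were lower and 3, all of Ggps1, were higher. At 5% 13 probes passed as lower, against 4.94% of all detected probes. Of these, 4 passed 1% (both Idi1 probes and 2 of Hmgcs1), against 0.335%. With the replicate block 10 passed 5%, against 2.71%. The groups did not overlap at 14 probes, all of them lower, which held for 13.8% of all detected probes. Probes of the same gene read the same livers and are not independent. Probes of the same gene differed by at most 0.17 for Hmgcs1, Mvk, Pmvk, Idi1 and Ggps1. They differed by 0.84 for Fdps and by 1.65 for Fdft1, where the weaker value came from the dimmer probe.

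All 8 lower genes were lower under every scaling, background correction and left-out liver tried. Hmgcs1, Mvk, Idi1, Fdps and Fdft1, 5 of the 9 genes, passed 5% with any of the 8 livers left out. Acat2 passed only without ATH mouse 2 (adjusted p between 0.0253 and 0.110 by limma), and so did Mvd (between 0.0493 and 0.0940). Pmvk lost the call without STD mouse 3, STD mouse 4, ATH mouse 3 or ATH mouse 4, with adjusted p by limma of 0.0643, 0.0553, 0.0600 and 0.0632. At 1%, Hmgcs1 and Idi1 passed only when STD mouse 4 or ATH mouse 2 was the liver left out, and their highest adjusted p was 0.0188 and 0.0206. The direction of Ggps1 was not stable, with -0.07 without STD mouse 4 and -0.03 without ATH mouse 1.

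The 8 lower genes ordered the STD livers much alike, which is a description, since genes of the same array are not independent. STD mouse 4 was the highest STD liver in 8 of 8 genes, and STD mouse 1 the lowest in 6 of 8. Relative to the STD mean of each gene, the mean over the 8 genes was -0.61, -0.33, 0.04 and 0.90 log2 units in STD mice 1 to 4. In the ATH livers this mean lay between -2.57 and -2.17. STD mouse 4 had the lowest share of spots well above background on its slide, 72.3%, and the part of this in its high values was not tested. Without it, Idi1 was at -3.12, Fdps at -2.83 and Hmgcs1 at -2.44.

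Among the ATH livers, mouse 3 was the lowest in 5 of the 8 genes, mouse 4 in 2 and mouse 1 in 1. Mvd went the other way, with ATH mice 3 and 4 at -0.26 and -0.44 and mice 1 and 2 at -2.16 and -1.61. After removal of each diet's mean, the correlation with the mean profile of the 9 genes over the 8 livers was 0.93 to 0.96 for Mvk, Idi1, Fdps and Fdft1, 0.88 for Pmvk, 0.74 for Hmgcs1, 0.66 for Acat2, 0.52 for Mvd and -0.49 for Ggps1. These values are a description, since each gene is part of the mean profile and the livers share their slides.

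The spread was larger on the ATH diet for only 2 of the 9 genes, Acat2 and Pmvk, whereas 65.6% of all detected probes had the larger SD on the ATH diet. The ratio of the ATH SD to the STD SD was 0.29 for Fdps, 0.47 for Idi1, 0.51 for Mvk and 0.55 for Fdft1. For Pmvk it was 1.01 and for Acat2 2.12, the only ratios above 1. The STD SDs rest in part on STD mouse 4, the highest STD liver in 8 of 8 lower genes and the lowest for Ggps1. For Mvk the log2 scaled signal was 0.63, 0.63 and 0.93 in STD mice 1 to 3 and 2.02 in STD mouse 4. Whether the spread differs between the diets without this liver was not tested.

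**Figure D3:**
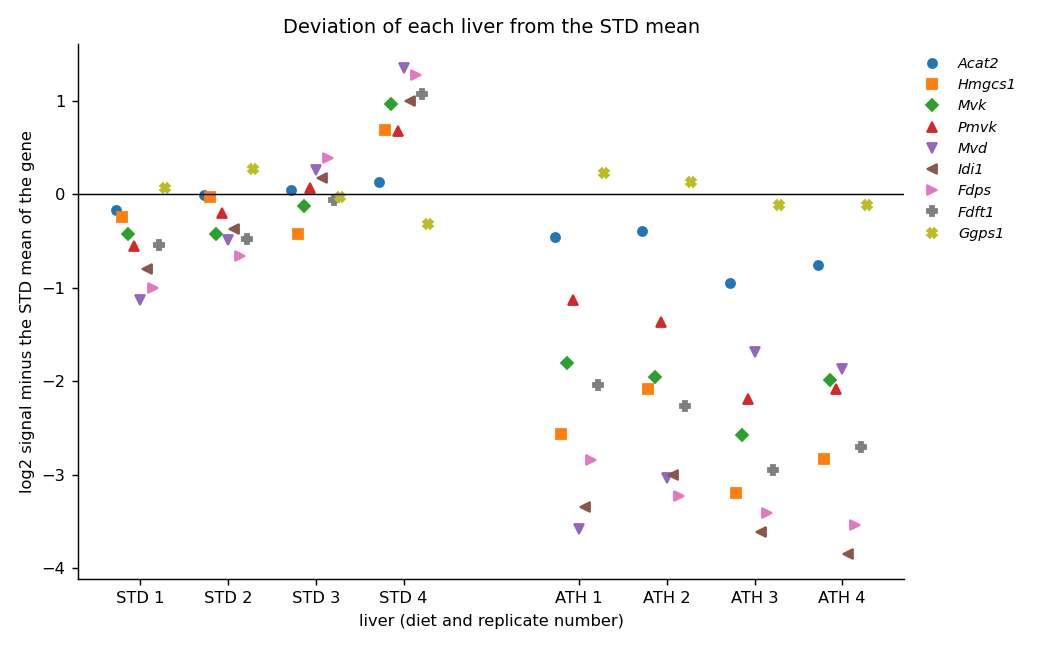
Log2 signal of the 9 genes in each of the 8 livers minus the STD mean of the same gene (vertical axis, log2 units), with livers named by diet and replicate number and a symbol for each gene. The 8 lower genes are all highest in STD mouse 4 among the STD livers, the ATH livers lie below the STD mean for them, and Ggps1 lies between -0.31 and 0.27 in all livers.

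Within-array differences, in which scaling between arrays cancels, compared 2 pairs of enzymes. The value of such a difference depends on the probes, and only its shift between the diets was tested. Fdps was set against Ggps1, the synthases on either side of the branch point. The log2 difference was 4.67 to 7.33 in the STD livers and 2.32 to 2.67 in the ATH livers. It fell by 3.29 on the log2 scale, with no overlap (exact permutation test with 70 assignments, two-sided, p = 0.0286, which 4 mice against 4 cannot undercut). After adjustment over the 2 pairs the exact permutation p was 0.0571, which did not pass 5%. The ATH livers were nearly alike in this difference, with an SD of 0.15 against 1.25 in the STD livers. With the replicate block, the p of this pair was 0.125, the smallest that its 16 assignments allow in an exact permutation test.

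Acat2 was set against Acat1, the mitochondrial thiolase. The log2 difference was 0.81 to 1.54 in the STD livers and 0.62 to 1.35 in the ATH livers, and the groups overlapped. The change of -0.20 did not pass (exact permutation test, p = 0.486), and 4 livers per diet did not separate the groups. Within the same-numbered pairs the difference was lower in the ATH liver in 4 of 4, by -0.27 to -0.14, and with the replicate block the exact permutation p was 0.125, again the smallest possible.

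The neighbouring steps were read from lists of other genes of sterol and isoprenoid metabolism. Beside the counts in these lists, 4.94% of all detected probes passed 5% as lower, and 2.71% did with the replicate block. Of 12 sterol enzymes that act after squalene, 11 passed 5% as lower (10 with the replicate block). Their log2 fold changes had a median of -1.91, beside -2.49 for the mevalonate pathway genes and -0.15 for all detected probes. Sqle, squalene epoxidase, fell by 5.35 on the log2 scale (limma adjusted p = 0.00663) and Msmo1, methylsterol monooxygenase, by 3.17 (limma adjusted p = 0.00423). Lbr, a sterol reductase that is also a nuclear envelope receptor for lamin B, was at 0.10 (limma adjusted p = 0.610). The 11 sterol genes that fell, like the 8 mevalonate pathway genes, had no overlap between the groups, which held for 13.8% of all detected probes. In the lists below it held, as lower, for 6 of 15 isoprenoid branch genes, 5 of 9 of SREBP control and 3 of 4 of acetyl-CoA supply. The count of sterol genes at 5% was 10 without scaling and with median, quantile or spike-in scaling. It was 9 without STD mouse 1, 2 or 4 and 8 without STD mouse 3, ATH mouse 3 or ATH mouse 4. With an unequal-variance test in place of limma it was 0.

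Of 16 genes of the isoprenoid branches, which use farnesyl and geranylgeranyl diphosphate for prenylation, ubiquinone, dolichol and tRNA, 15 were detected and 2 passed 5% as lower by limma, none with the replicate block, and 6 and 4 had an unadjusted p under 0.05 as lower in these fits (19.3% and 21.8% of all probes), with 0 and 1 as higher (9.05% and 9.89%). Their median log2 fold change was -0.22, and its direction turned with the scaling, to 0.23 without scaling and 0.07 with spike-in scaling. With either of these, and with median scaling, none passed as lower, and with a liver left out 2 passed only without ATH mouse 2, 1 without ATH mouse 1 and 0 without any other. The largest values were -0.60 for Trit1, a tRNA isopentenyltransferase (limma adjusted p = 0.0371, blocked 0.0532), and -0.54 for Rabggta, a subunit of Rab geranylgeranyl transferase (limma adjusted p = 0.0485, blocked 0.0791). Zmpste24, the protease that processes prenylated prelamin A, was at -0.01 (limma adjusted p = 0.973). Ggps1, at 0.04, lay within the range of this list, -0.60 to 0.31.

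Of 9 genes of SREBP control and sterol uptake, 5 passed 5% as lower (4 with the replicate block), with a median of -0.85. Without scaling and with spike-in scaling 2 passed, at medians of -0.41 and -0.56, and with quantile normalization 3. The count was 2 without STD mouse 3 or ATH mouse 3 and 3 without STD mouse 1, STD mouse 4 or ATH mouse 4. Stard4, a cytosolic sterol carrier, fell by 1.98 on the log2 scale (limma adjusted p = 0.00364), Insig1, which retains SCAP in the endoplasmic reticulum, by 1.81 (limma adjusted p = 0.00965), and Mbtps1, a protease that cleaves SREBPs, was at -0.16 (limma adjusted p = 0.428). Srebf2 and Srebf1, which encode SREBP-2 and SREBP-1, were named after their values were seen. Srebf2 fell by 1.07 (limma adjusted p = 0.0215). Srebf1 was at 1.02, the other direction, with overlapping groups, and did not pass (limma adjusted p = 0.0770, blocked 0.0524).

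Of 4 genes of acetyl-CoA supply, 3 passed 5% as lower (2 with the replicate block), and 1 without scaling, with quantile normalization or with spike-in scaling. It was also 1 without STD mouse 1, 3 or 4 or ATH mouse 3 or 4. Acss2, the cytosolic acetyl-CoA synthetase, fell by 1.78 on the log2 scale (limma adjusted p = 0.0120), and Acly, ATP citrate lyase, by 0.81 (limma adjusted p = 0.0467, blocked 0.0578). Acss1, the mitochondrial synthetase, was at 1.42 (limma adjusted p = 0.0528).

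**Figure D4:**
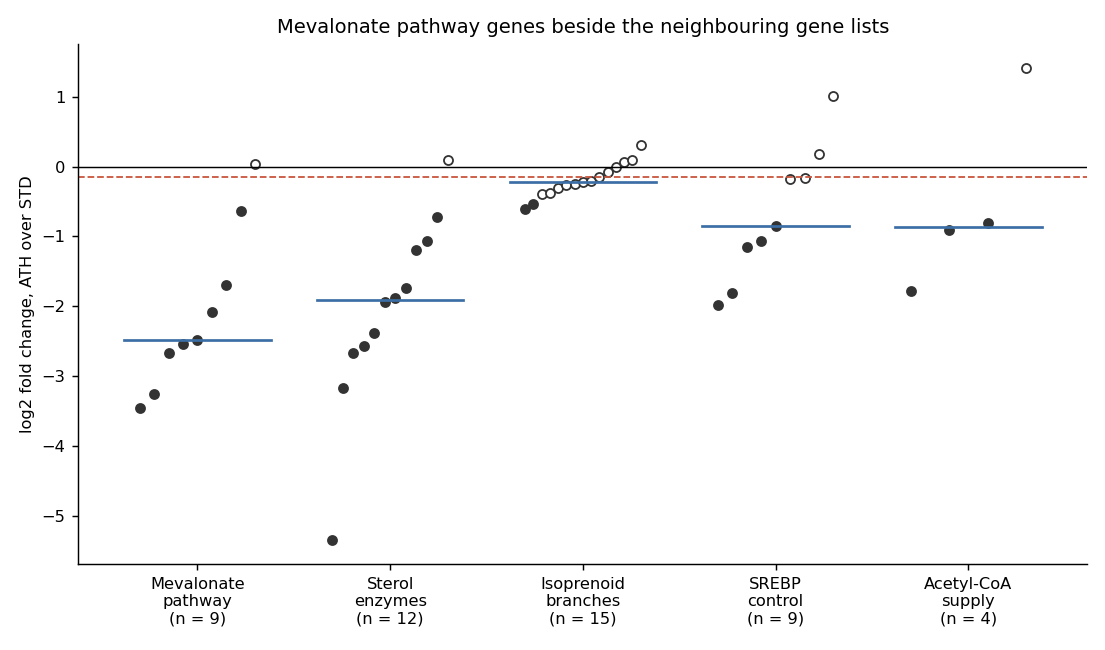
Log2 fold change of ATH over STD (vertical axis) of each detected gene in 5 lists, filled where the adjusted p by limma was under 0.05, with the median of each list as a blue line and the median of all detected probes, -0.15, as a dashed line. The mevalonate pathway and sterol genes lie mostly below -1, and the genes of the isoprenoid branches lie between -0.60 and 0.31.

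Markers of the cells of the liver were read beside these values. Of 10 hepatocyte markers 9 had a probe under their name. With the scaling used here they were lower with a median log2 fold change of -0.33, and none passed 5% by limma (4 had an unadjusted p under 0.05 as lower, against 19.3% of all probes). This median is smaller in size than the 0.45 by which the 75th percentile was higher on the ATH arrays before scaling. Its direction therefore turns without scaling, and the summed signals below rest on the same scaling. Summed signals add probes whose levels are not comparable, so that the brightest probes lead them. For the hepatocyte markers the sum was 3751 to 3805 in the STD livers and 2517 to 3373 in the ATH livers, but the probe of Alb, albumin, was saturated on 2 ATH arrays, where its signal is a lower bound. The other 8 markers summed to 2455 to 2544 and 1723 to 2244. Of 13 macrophage markers 6 passed 5% as higher (3.06% of all probes did), with a median of 1.54, and their summed scaled signal was 104 to 122 in the STD livers and 195 to 828 in the ATH livers. All 9 stellate cell markers were higher, with a median of 0.59, and 1 of 9 passed 5% (summed signal 58.6 to 64.5 and 81.6 to 112). An unadjusted p under 0.05 by limma as higher was found for 6 of these 9, against 9.05% of all probes. Cholangiocyte markers passed as higher for 1 of 4 (2 had an unadjusted p under 0.05 as higher, summed signal 1.05 to 1.64 and 1.73 to 2.80). Lymphocyte markers passed as higher for 0 of 8 (summed signal 1.56 to 2.08 and 1.34 to 4.29). Of these 8, 3 had an unadjusted p under 0.05 by limma as higher and 1, Cd3e at -0.71, as lower. Endothelial markers passed as higher for 0 of 5 (1 had an unadjusted p under 0.05 as higher, summed signal 18.6 to 25.7 and 18.7 to 30.5). The part of these shifts in the decrease of the mevalonate pathway genes was not tested. The summed signal of the 9 genes was 201 to 448 in the STD livers and 57.3 to 91.6 in the ATH livers.

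By the correlation of their level with the mean profile of the 9 genes over the 8 livers, the genes outside the pathway with the most similar profile among 16550 were Msmo1, Clgn, P2rx3, Nsdhl and Dhcr7. After removal of each diet's mean, their correlations were 0.97, 0.97, 0.95, 0.95 and 0.94, where the median gene had 0.08. Msmo1, Nsdhl and Dhcr7 are sterol enzymes. Clgn, an endoplasmic reticulum chaperone known from testis, fell by 0.91 on the log2 scale (limma adjusted p = 0.0110), and P2rx3, a purinergic receptor subunit known from sensory neurons, by 0.65 (limma adjusted p = 0.0273, blocked 0.0577). The likeness is a description over 8 livers that share their slides and their diets. These genes were picked for it on the same livers, so high values are in part a result of the picking.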

How the data were processed

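The authors hybridised Cy3-labelled cRNA of 8 livers and extracted spot values with Agilent Feature Extraction version 9.5, as the submitters' processing notes name it. The deposited array files hold processed spot intensity, background-subtracted and detrended, not scaled between arrays. The deposited table of log2 values from GeneSpring was used as an alternative. How that table was scaled and centred is not given in the sources used here.

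Spots of a probe were averaged without outlier spots, log2 was taken, and from each array its 75th percentile, computed on non-control probes, was subtracted. A probe was detected when well above background, positive and significant and not an outlier on 3 or more of the 4 arrays in a diet. For probes with several spots this reading was set so that the count of 31056 met that of an earlier analysis, and no probe of the 9 genes has several spots. The probe with the highest mean over 8 arrays stood for a gene. Probes were named by accession, symbol or synonym through a RefSeq gene table (GRCm38.p6). Diet was tested with limma 3.58.1 in R 4.3.3 (lmFit, then eBayes; two-sided p-values with Benjamini-Hochberg adjustment over all detected probes), in place of the unequal-variance analysis of the methods. The alternative called the methods' t-test ran an unequal-variance test on the values used here. The methods state that the GeneSpring run of the authors kept probes by a detection flag within treatment groups. The scaling of its values is not given in the sources used here, so the counts of the t-test alternative do not stand for that run. Pair differences were tested by exact permutation, adjusted over the 2 pairs given since 1 planned pair and 1 planned gene list are not reported here, in Python 3.11.15 with numpy 2.4.6 and pandas 2.3.3, and figures used matplotlib 3.10.9. On simulated data, where 200 among 31042 probes were shifted by a log2 value of 2, the fit found 76.5% of them at 1% and 91% at 5%.

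The genes, the lists and the tests were chosen with earlier results of these data known. Named were all 9 genes and their probes, of each neighbouring list the 2 genes with the largest absolute log2 fold change and the 1 with the smallest, and the 5 genes with the most similar profile. The motifs, and the promoters and probes shown, were chosen after the values were seen. A replicate number stands for a slide position in the array files. Same-numbered arrays deviated together from their diet means (correlation over probes 0.1001, 0.2296, 0.1815 and 0.1766 for numbers 1 to 4). Arrays of unlike numbers were not compared in this way. The numbers were treated as pairs only in the alternatives with the replicate block, and the main fit has no block. Other alternatives were normexp with an offset of 50, no, median, quantile and spike-in scaling, the detection filter, the median probe and each liver left out.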

Additional observations from a re-analysis of the deposited data

How the results depend on the processing

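The main counts were 2 genes at 1% and 8 at 5%. At 1% the count of mevalonate pathway genes called lower became 5 with normexp, 5 with probes detected on all arrays, and 0 without the detection filter, with the methods' t-test and with the replicate block, where 8 genes each had an unadjusted p under 0.05 as lower, against 17.2%, 16.3% and 21.8% of all probes. At 5% it became 0 with the methods' t-test, which called 22 probes in all at 5% and none at 1% on the values used here, and stayed between 6 and 8 under the other settings that kept all livers. With each liver left out in turn the count ranged from 0 to 4 at 1% and from 5 to 8 at 5%. With the replicate block the Fdps minus Ggps1 difference kept its value of -3.29, with an exact permutation p of 0.125 that cannot go lower. With each liver left out, this difference ranged from -3.65 to -2.76. The median log2 fold change of the 9 genes stayed between -2.67 and -2.02 in all 19 alternatives. Over all probes, 164 passed 1% and 2483 passed 5%, against 0 and 1322 with the replicate block, 37 and 1086 without the filter, 488 and 7364 without scaling, 454 and 6394 with normexp, 73 and 2171 with spike-in scaling and 252 and 2669 with probes detected on all arrays. With livers left out these counts ran from 5 to 1011 and from 394 to 3979. The causes were not tested.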

Other observations

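Mmab, an enzyme of cobalamin metabolism, ranked 7th by likeness to the mean profile of the mevalonate pathway genes and was named after its values were seen. In RefSeq (GRCm38.p6) it lies at chr5:114431034-114444073 on the minus strand, with 190 bases between it and Mvk at chr5:114444264-114460591 on the plus strand, so that the 250 bases shown for Mvk reach into Mmab. Mmab fell by 1.43 on the log2 scale (SE 0.174, limma adjusted p = 0.00662, blocked 0.0367), against 2.08 for Mvk.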
